A study of Mus musculus with 10 samples.

Results

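The 8 genes described here encode chains of the collagens that build or coat the fibrils of interstitial connective tissue: Col1a1, Col1a2, Col3a1, Col5a1, Col5a2, Col5a3, Col12a1 and Col14a1. They were chosen by symbol, as every probe set annotated to only 1 of these symbols, which gave 21 of the 45101 probe sets on the array and 8 of 18193 genes. RNA came from a calf muscle, the gastrocnemius, taken at 7.5 months of age from 10 males of C57BL/6 background. The Floxed_Mstn group (n = 5, called knockout here) had floxed myostatin genes, and the WT_Mstn group (n = 5, called control) had normal ones. All 10 mice carried the CAGG-CreER transgene and received 8 tamoxifen injections that began at 4 months, so the controls share the Cre recombinase and the drug. CAGG is a broadly active promoter, so the deletion it drives need not be limited to muscle fibres. In which cells it took place was not measured here. The labels do not name litters or batches, and the p-values measure the spread between these mice. The comparison asks how collagen transcripts of mature muscle differ once myostatin, a secreted inhibitor of muscle growth, has been deleted in adulthood.

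Collagens I, III and V are fibril-forming: 3 chains wind into a long triple helix, and the helices pack side by side into fibrils. Type I gives tendon and the sheaths of muscle most of their tensile strength, type III is the partner of type I in pliable tissue, and type V lies inside type I fibrils and limits their diameter. Collagens XII and XIV do not form fibrils of their own but sit on the surface of fibrils and link them to the surrounding matrix. In muscle these chains are made mainly by fibroblasts and tendon cells and not by the fibres. In a bulk sample, fewer cells of a type and less RNA per cell cannot be told apart.

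Values are log2 of the deposited intensity, on which a difference of 1 is a doubling. A probe set was tested where its log2 intensity averaged at least 4 over all arrays, and 15 of the 21 collagen probe sets passed, at least 1 for each of the 8 genes. The other 6 had means between 2.22 and 3.94 and were not tested. They are 3 of Col12a1 (1440101_at, 1427391_a_at and 1445751_at) and 1 each of Col1a2 (1446326_at), Col5a3 (1425984_at) and Col14a1 (1453931_at). Their levels say nothing of the direction in either group. Probe sets differ in how strongly they bind, so levels are compared only within a probe set.

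All 15 tested collagen probe sets had a lower mean in knockout muscle, with a median difference of -0.58 on the log2 scale, where the median over all tested probe sets was -0.003 and 50.8% of them were lower. In 3 collagen probe sets, of Col1a1 and Col1a2, the fall passed an adjusted p of 0.05 in limma over all 21154 probe sets, and none rose. Over all probe sets, 0.0473% passed lower and 0.052% passed higher, 0.0993% together. At an unadjusted p under 0.05, 10 of the 15 were lower, against 4.09% of all probe sets. In 7 collagen probe sets, from 5 genes, every knockout array lay below every control array, which held for 0.893% of all probe sets. Probe sets of 1 gene measure the same transcripts and all 8 genes were measured in the same mice, so these counts are not independent observations. The 8 genes were also chosen with earlier results of these data known. The shares over all probe sets are therefore a background and not a test of the set.

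**Figure D1:**
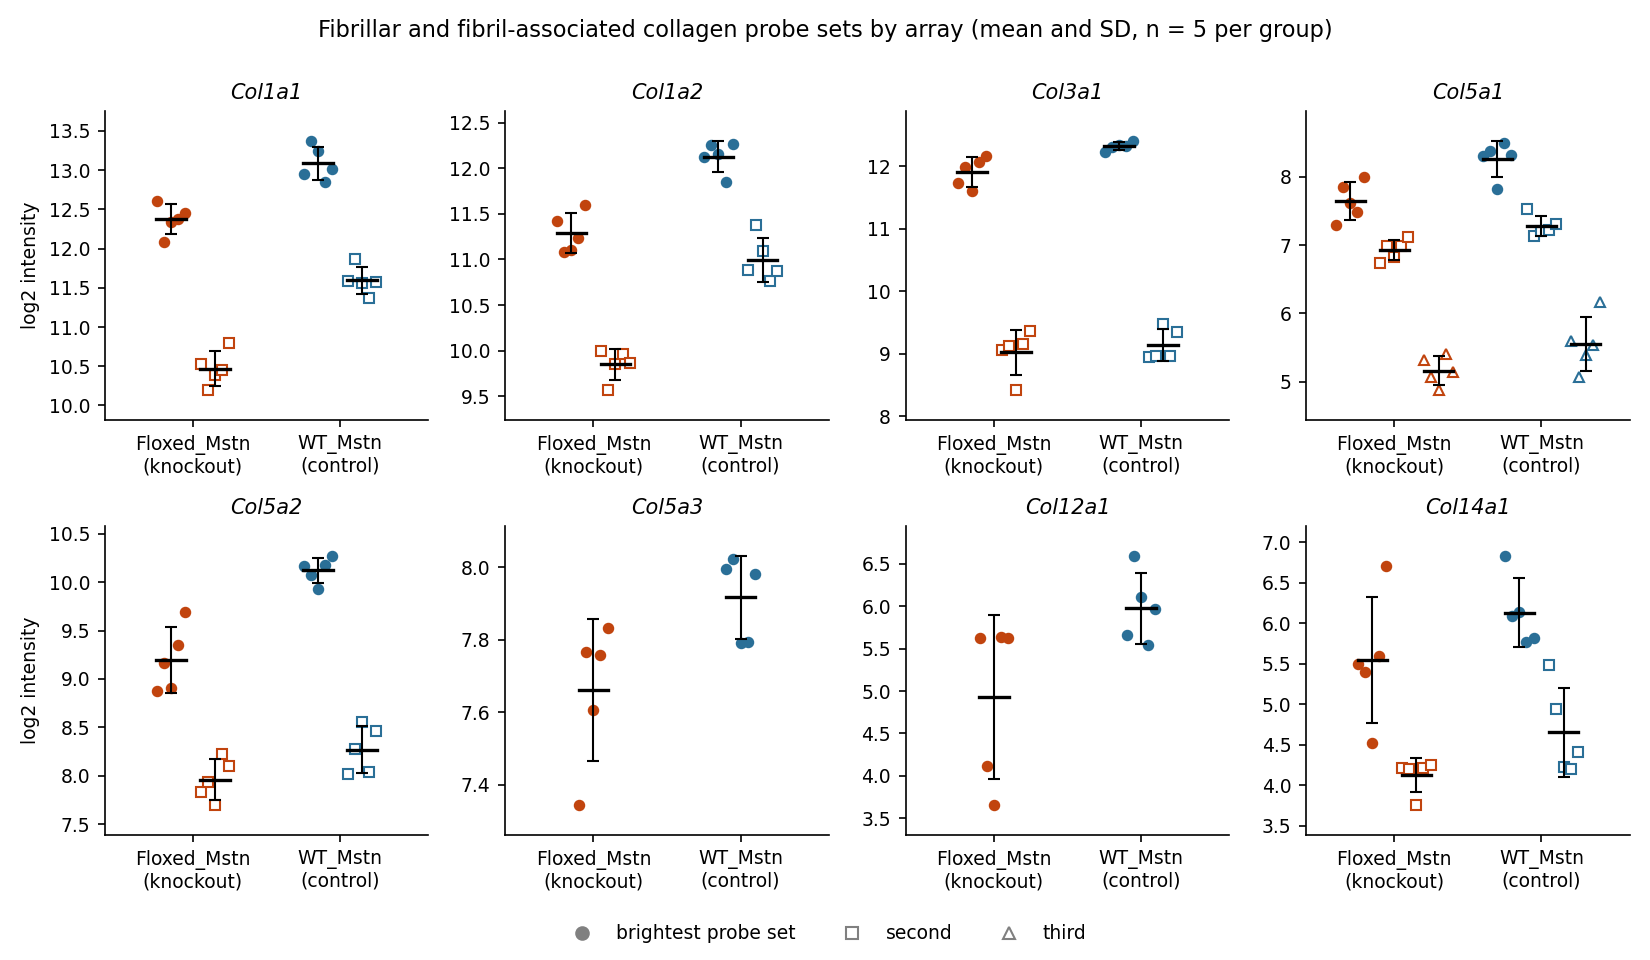
Log2 intensity (y axis) of the 15 tested collagen probe sets in each of the 5 Floxed_Mstn and 5 WT_Mstn arrays, 1 panel per gene, with points for arrays, a heavy line for the mean and a bar for the SD. The groups are fully apart for both tested probe sets of Col1a1 and of Col1a2, and overlap for both of Col14a1.

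Col1a1 encodes the alpha 1 chain, which fills 2 of the 3 places in the type I triple helix. Its probe set 1423669_at read 10.52, 10.19, 10.39, 10.45 and 10.80 in knockout muscle, against 11.59, 11.87, 11.57, 11.37 and 11.58 in control muscle. The groups were apart by 0.58, from the highest knockout array to the lowest control array. The mean was 10.47 ± 0.22 in knockouts and 11.59 ± 0.18 in controls (SD, n = 5 each), a fall of 2.18-fold with a log2 difference of -1.12 ± 0.12 (SE, adjusted p = 0.0264). The brighter probe set 1455494_at read 12.61, 12.08, 12.34, 12.38 and 12.45 in knockouts, against 12.95, 13.37, 13.24, 12.85 and 13.02 in controls. Here too no arrays overlapped, but the difference of -0.71 ± 0.13 (SE) did not pass (adjusted p = 0.104). The 2 probe sets differed in the size of their difference by 0.41, with an exact two-sided permutation p of 0.0159, or 0.0635 after adjustment over the 8 pairs of probe sets of 1 gene.

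Col1a2 encodes the alpha 2 chain, which takes the remaining place in the same helix. Probe set 1423110_at read 10.001, 9.56, 9.85, 9.97 and 9.87 in knockout muscle, against 10.88, 11.37, 11.09, 10.77 and 10.88 in control muscle. The gap between the groups, 0.77, was the widest among the 15 tested collagen probe sets. The means were 9.85 ± 0.17 in knockouts and 10.997 ± 0.24 in controls (SD, n = 5 each), 2.21-fold lower in knockouts (-1.15 ± 0.13 SE, adjusted p = 0.0264). Probe set 1450857_a_at read 11.42, 11.08, 11.10, 11.24 and 11.60 in knockouts, against 12.12, 12.25, 12.15, 11.85 and 12.27 in controls. It was 1.79-fold lower with no overlap (-0.84 ± 0.12 SE, adjusted p = 0.0494). The chains of type I were therefore the only ones of these 8 genes with a called probe set.

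These 3 calls depended on single arrays and settings although the differences hardly moved. With no filter on dim probe sets, 1450857_a_at did not pass (adjusted p = 0.102). Without Floxed_Mstn 1, 2, 3 or 4, or without WT_Mstn 3, 4 or 5, none of the 3 passed, with adjusted p between 0.0501 and 0.161. Without WT_Mstn 2 only 1423110_at passed, without WT_Mstn 1 both probe sets of larger difference passed, and without Floxed_Mstn 5 all 3 passed. Over these removals the log2 difference ran from -1.21 to -1.06 for 1423669_at, from -1.20 to -1.05 for 1423110_at and from -0.92 to -0.79 for 1450857_a_at.

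The start of the Col1a2 gene is shown beside that of Col3a1, because among the fibril-forming members with a RefSeq promoter entry (4 of the 8 genes matched) Col1a2 was past the threshold in both tested probe sets and Col3a1 had a probe set whose groups overlapped. Col5a1 and Col5a3 also had tested probe sets whose groups overlapped, so this reason does not single out Col3a1. Their windows are described below without the sequence. The sequences are the 250 bases before the annotated start (RefSeq, GRCm38.p6), at chr6:4505368-4505617 for Col1a2 and chr1:45311288-45311537 for Col3a1, both on the plus strand. Capitals mark each CCAAT and TATAAA on either strand, which do not overlap here.
Col1a2: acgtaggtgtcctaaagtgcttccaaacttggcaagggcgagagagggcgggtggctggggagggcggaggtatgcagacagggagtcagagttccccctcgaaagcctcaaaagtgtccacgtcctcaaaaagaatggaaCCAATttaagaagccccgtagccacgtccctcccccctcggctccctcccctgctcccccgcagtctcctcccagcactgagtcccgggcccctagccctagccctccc
Col3a1: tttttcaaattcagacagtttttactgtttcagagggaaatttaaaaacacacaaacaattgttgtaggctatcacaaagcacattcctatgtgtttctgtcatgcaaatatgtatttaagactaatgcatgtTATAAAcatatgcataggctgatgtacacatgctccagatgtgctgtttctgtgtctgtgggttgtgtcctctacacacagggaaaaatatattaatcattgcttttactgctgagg

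The Col1a2 window is rich in G and C (62.0%) and holds 1 CCAAT, whose first base lies 109 bases before the start. The Col3a1 window has 35.2% G and C and holds 1 TATAAA, 117 bases before the start. The windows of Col5a1 and Col5a3 have 76.4% and 62.8% G and C, and that of Col5a3 holds a CCAAT 122 bases before the start. Among the 32851 promoters of the table, the median G and C content is 52.4%, and 33.8% hold a CCAAT and 12.4% a TATAAA on either strand in a window of this length. CAGAC, the core of a site that Smad proteins of the TGF-beta pathway can bind, occurs once in the Col1a2 and Col5a1 windows and at 2 places in that of Col3a1, and 42.2% of all promoters hold it. These matches describe letters and not bound sites.

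Col3a1 encodes the only chain of type III collagen. Its probe set 1427883_a_at read 11.73, 11.99, 11.60, 12.07 and 12.16 in knockout muscle, against 12.22, 12.30, 12.35, 12.32 and 12.40 in control muscle. All knockout arrays were lower, but by a gap of only 0.06, and the knockouts spread more widely (SD 0.24) than the controls (SD 0.07, n = 5 each). The difference was -0.41 ± 0.11 (log2, SE, 95% interval -0.66 to -0.16) and did not pass (adjusted p = 0.376). The dimmer probe set 1427884_at read 9.05, 9.12, 8.41, 9.16 and 9.37 in knockouts and 8.94, 8.96, 9.48, 8.97 and 9.34 in controls. Its groups overlapped almost entirely, with a difference of -0.12 (95% interval -0.53 to 0.30, adjusted p = 0.972). Its sign rested on Floxed_Mstn 3, without which the difference was 0.04.

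Col5a1, Col5a2 and Col5a3 encode the alpha 1, alpha 2 and alpha 3 chains of type V. Col5a2, whose chain joins those of Col5a1 in the common form of type V, came nearest to the threshold among the 6 genes outside type I. Its probe set 1422437_at read 8.87, 9.16, 8.90, 9.35 and 9.69 in knockout muscle, against 10.16, 10.07, 9.93, 10.18 and 10.27 in control muscle. The groups did not overlap, and the difference was -0.93 ± 0.15 (log2, SE, adjusted p = 0.0838), a ratio of 1.90 between control and knockout. The second Col5a2 probe set, 1450625_at, read 7.83, 7.93, 7.69, 8.22 and 8.10 in knockouts, against 8.01, 8.28, 8.56, 8.04 and 8.46 in controls. It overlapped, with a difference of -0.31 (95% interval -0.62 to 0.00, adjusted p = 0.651). The 2 probe sets differed by 0.62 in their difference (exact permutation p = 0.0159, adjusted 0.0635), so the size of the Col5a2 difference depends on the probe set. Probe set 1422437_at passed without Floxed_Mstn 5, the highest knockout array (-1.05, adjusted p = 0.0351), and also after quantile normalization (0.0349), with median centring (0.0241), with the variance trend and robust fit (0.026), with array weights (0.0206) and with the hybridisation control covariate (0.00912, all adjusted p in limma).

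Col5a1 had 3 tested probe sets, and none passed. Probe set 1434479_at read 7.29, 7.85, 7.62, 7.48 and 8.00 in knockout muscle, against 8.30, 8.38, 7.82, 8.50 and 8.32 in control muscle (difference -0.61 ± 0.16 SE, adjusted p = 0.348). The groups overlapped through WT_Mstn 3, the only control array under the highest knockout array. In 1416740_at all knockout arrays (6.73 to 7.12) lay below all control arrays (7.14 to 7.52), by 0.02, with a difference of -0.35 (adjusted p = 0.41). In 1416741_at the groups overlapped, at 4.87 to 5.41 in knockouts and 5.07 to 6.17 in controls (-0.39, or -0.23 without WT_Mstn 5, adjusted p = 0.707 with all arrays).

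Col5a3, the chain of a rarer form of type V, had the smallest difference of the 8 genes by their brightest probe set. Its probe set 1419703_at read 7.34, 7.77, 7.61, 7.76 and 7.83 in knockout muscle, against 8.00, 8.02, 7.79, 7.79 and 7.98 in control muscle. The groups overlapped by 0.04, with the highest knockout above 2 controls, and the difference was -0.26 (95% interval -0.49 to -0.02, adjusted p = 0.604).

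Col3a1 and Col5a2 lie on the chromosome that carries Mstn, with 19 and 18 protein-coding genes between each of them and Mstn and none between the pair, in the GRCm38.p6 gene order. The other 6 genes lie on other chromosomes. For Col3a1 and Col5a2, DNA near the floxed gene may differ between the groups together with the genotype, and these cannot be told apart here.

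**Figure D2:**
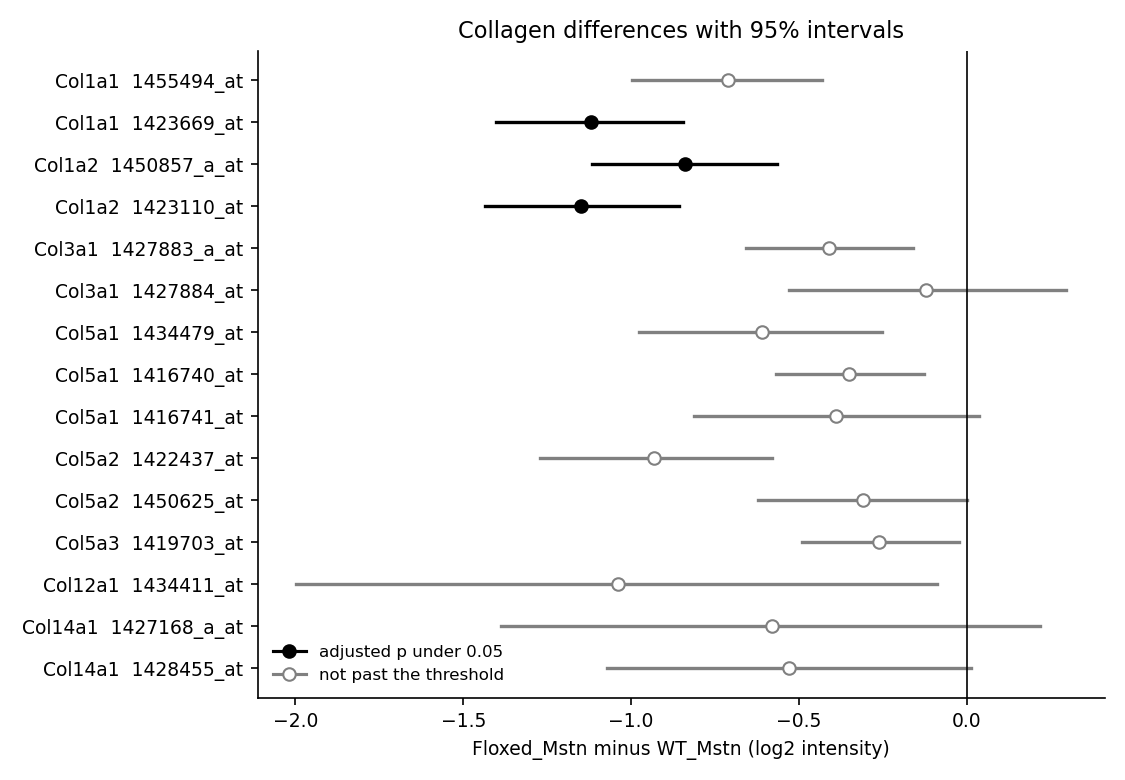
Difference of mean log2 intensity, Floxed_Mstn minus WT_Mstn (x axis), for the 15 tested collagen probe sets, with 95% intervals from the limma fit. Filled black points passed the adjusted threshold. All 15 points lie below 0, and the type I chains and Col5a2 1422437_at have intervals far from 0 while those of Col12a1 and Col14a1 are wide.

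Among the fibril-associated chains, Col12a1, whose product is abundant in tendon and muscle sheaths, had 1 tested probe set, 1434411_at. It read 5.62, 4.11, 3.65, 5.64 and 5.62 in knockout muscle, against 5.66, 6.59, 6.11, 5.54 and 5.97 in control muscle. Floxed_Mstn 2 and 3 were low, while the other knockouts lay beside the lower controls. The difference of -1.04 was the most negative of the 8 brightest probe sets, but its 95% interval ran from -1.998 to -0.09 and it did not pass (adjusted p = 0.604).

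Col14a1, the type XIV chain, which coats fibrils and can bind decorin, had 2 tested probe sets with overlapping groups. Probe set 1427168_a_at read 5.501, 5.40, 4.53, 5.59 and 6.70 in knockout muscle, against 6.83, 6.09, 6.14, 5.77 and 5.82 in control muscle. Of the knockouts, 4 lay below all controls and Floxed_Mstn 5 lay above 4 of them. The difference was -0.58 (95% interval -1.39 to 0.22, adjusted p = 0.791). Leaving out single arrays moved it from -0.33, without Floxed_Mstn 3, to -0.87, without Floxed_Mstn 5. Probe set 1428455_at gave -0.53 (95% interval -1.07 to 0.01, adjusted p = 0.664), and -0.32 without WT_Mstn 1.

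The differences of the 8 genes were set against each other through their brightest tested probe sets, as the per-array difference between 2 genes (exact two-sided permutation over 252 assignments of the arrays, smallest possible p = 0.00794). None of the 28 pairs passed after adjustment over the pairs, and 6 had an unadjusted p under 0.05. With so few assignments, a pair can pass only if several others also lie at or near the smallest possible p. Only 2 pairs reached it, so not passing does not show that 2 genes differed alike. By these probe sets the difference of Col5a2 was larger than that of its neighbour Col3a1 by 0.52 (95% interval 0.31 to 0.73, exact permutation p = 0.00794, adjusted 0.111). It was larger than that of Col5a3 by 0.67 (exact permutation p = 0.00794, adjusted 0.111). Neither order passed, and both depend on the probe set. The second Col5a2 probe set, 1450625_at, was at -0.31, where the Col3a1 probe set used was at -0.41 and that of Col5a3 at -0.26. Col1a1 and Col1a2 differed from each other by 0.13 (95% interval -0.11 to 0.36). For Col12a1 against Col14a1 the interval was wide, from -1.39 to 0.48.

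With the mean of all tested probe sets of a gene in place of the brightest, 7 of the 28 pairs passed, each with an adjusted p of 0.0317 and an exact permutation p of 0.00794. By that measure Col1a2 (-0.99) and Col1a1 (-0.92) each differed more than Col3a1 (-0.26) and more than Col5a3 (-0.26). Col5a2 (-0.62) also differed more than either, and Col1a2 more than Col1a1, by 0.07. The order of type I over type III and over the alpha 3 chain of type V therefore passed or not with the way probe sets were combined. Passing also rested on how many pairs reached the smallest possible p, 7 here and 2 with the brightest probe sets.

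Single knockout arrays were high or low over many of these probe sets. Floxed_Mstn 5 was the highest knockout in 10 of the 15 tested probe sets and the lowest in 0, and Floxed_Mstn 3 was the lowest in 7 and the highest in 0. The mean of the 8 brightest probe sets was 8.80, 8.68, 8.42, 8.94 and 9.26 in knockout muscle, against 9.53, 9.64, 9.44, 9.35 and 9.50 in control muscle. On this mean the controls lay within a narrow band and every knockout lay below it. Each gene counts alike in the mean. The dimmest genes, Col12a1 and Col14a1, had the widest knockout spread (SD 0.97 and 0.77, against at most 0.34 for the others). They therefore weigh most on the spread of this mean among knockouts, and on correlations with it.

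Pearson's r over the 10 arrays with that mean was taken for the 10696 other genes tested. Unnamed transcripts, such as Riken clones, were skipped in the ranking. The genes most alike among the rest were Prelid1 (0.961), Btbd11 (0.945), Spata13 (0.936), Atp10a (0.934), Mdc1 (0.932) and Fndc1 (0.932). The most opposed were Prkacb (-0.955) and Map2k4 (-0.938). For deviations from the group means the values were 0.849, 0.800, 0.851, 0.923, 0.942 and 0.789 in the same order, and -0.864 for Prkacb and -0.853 for Map2k4. These are descriptions of arrays that share the normalization, and the largest of many values, and none of these 8 genes passed the threshold between groups (adjusted p from 0.164 to 0.584).

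The lists of related genes were read through the brightest tested probe set of each gene. They too were chosen with earlier results of these data known, so the shares given beside them are background and not a test. Of all 10704 genes, 0.0654% passed lower, 0.0654% passed higher, 51.5% had a lower mean in knockouts, and the median difference was 0.00. At an unadjusted p under 0.05, 5.02% were lower and 8.9% differed in either direction. By this measure 1 of the 8 members (Col1a2) passed lower and none higher, and their median was -0.66. Of the other fibrillar collagens 3 of 5 could be tested and none passed (limma, 0 at an unadjusted p under 0.05, median -0.03), with Col11a1, a chain of cartilage fibrils, at -0.44 (adjusted p = 0.677) and Col24a1 at 0.20 (adjusted p = 0.967). Of 8 other fibril-associated collagens 4 were tested and none passed (1 at an unadjusted p under 0.05, median -0.21). Col22a1, which is found at the junction of muscle and tendon, was at -0.26 (adjusted p = 0.469) and Col9a1 at 0.36 (adjusted p = 0.806). Among 14 tested genes of network, beaded-filament and other collagens 1 passed, lower, while 13 had lower means, 8 of them at an unadjusted p under 0.05, and the median was -0.35. This was Col6a3, a chain of the beaded filaments around fibres (8.80 ± 0.10 in knockouts and 9.36 ± 0.08 in controls, SD, n = 5 each, adjusted p = 0.0377), while Col6a1 was at -0.40 (adjusted p = 0.0691).

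**Figure D3:**
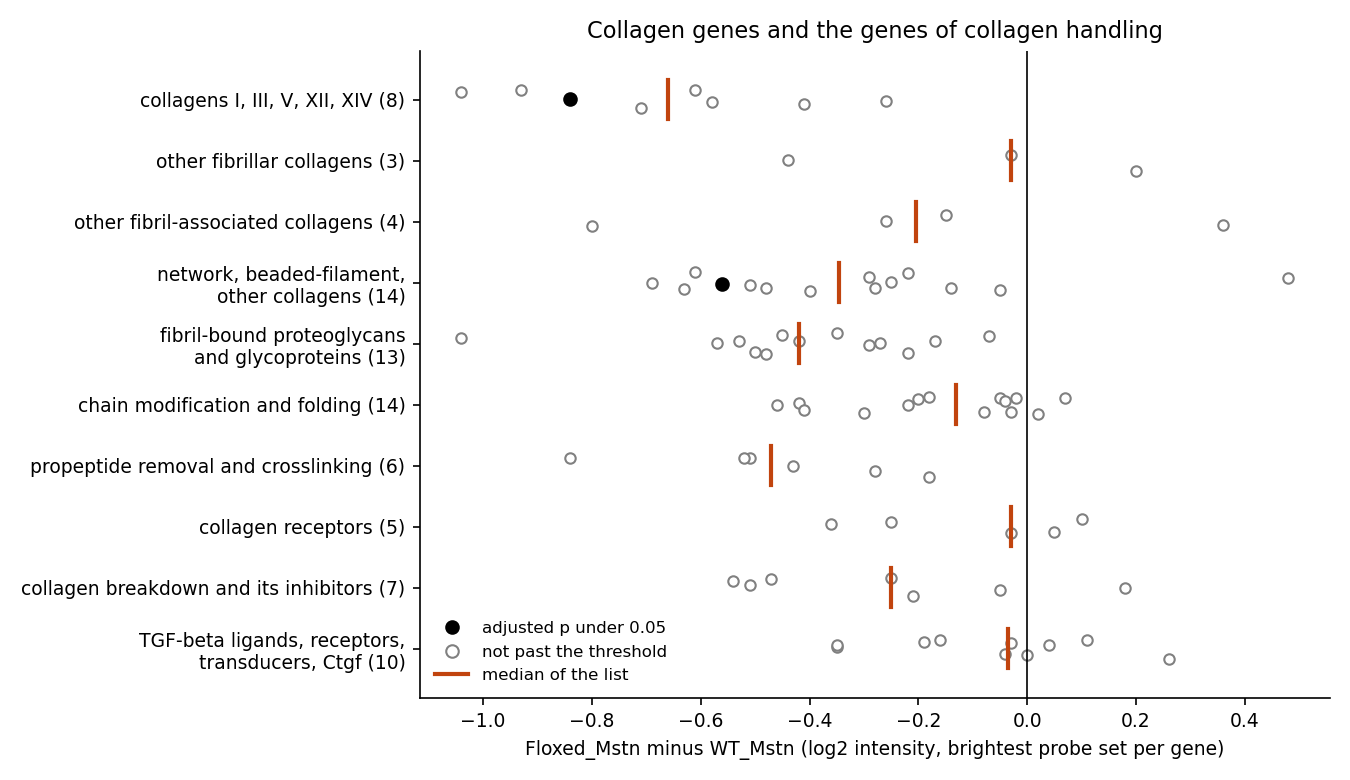
Difference of mean log2 intensity, Floxed_Mstn minus WT_Mstn (x axis), for the brightest tested probe set of each gene in 10 lists, with the number of tested genes in brackets and a vertical bar at each list's median. Only Col1a2 and Col6a3 (filled) passed the adjusted threshold, and the medians run from -0.66 for the 8 collagen genes to -0.03 for 3 of the lists.

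No gene passed in the lists of collagen handling (limma). Beside the counts that follow, 5.02% of all tested genes were lower at an unadjusted p under 0.05, and 8.9% differed in either direction. All 13 tested proteoglycans and glycoproteins that bind fibrils had lower means in knockouts (median -0.42, 6 at an unadjusted p under 0.05), among them Sparc, a collagen-binding glycoprotein (-0.35, adjusted p = 0.164), and the small proteoglycan Ogn (-0.57, adjusted p = 0.458). All 6 tested genes of propeptide removal and crosslinking had lower means (median -0.47, 3 at an unadjusted p under 0.05), with Pcolce, an enhancer of propeptide removal, at -0.51 (adjusted p = 0.264) and the crosslinking enzyme Lox at -0.84 (adjusted p = 0.58). Of 14 genes of chain modification and folding 12 had lower means, with a median of -0.13, 0 at an unadjusted p under 0.05, Serpinh1, the collagen chaperone, at -0.42 (adjusted p = 0.652) and Crtap at -0.41 (adjusted p = 0.682). Of 7 genes of collagen breakdown and its inhibitors 6 had lower means (median -0.25, 2 at an unadjusted p under 0.05), with the gelatinase Mmp2 at -0.51 (adjusted p = 0.301) and Ctsk, a collagen-degrading protease, at -0.54 (adjusted p = 0.646).

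The 5 tested collagen receptors had a median of -0.03 and 1 gene at an unadjusted p under 0.05, with the uptake receptor Mrc2 at -0.36 (adjusted p = 0.64) and the receptor kinase Ddr2 at -0.25 (adjusted p = 0.841). The 10 tested genes of TGF-beta signalling, which drives collagen transcription in fibroblasts, also had a median of -0.03, with 6 lower and 4 higher, of which 2 and 1 had an unadjusted p under 0.05. Of all tested genes, 8.9% differed at that level in either direction. Smad7, an inhibitor of the pathway that the pathway itself induces, was at -0.35 (adjusted p = 0.469) and the receptor Tgfbr1 at 0.26 (adjusted p = 0.488).

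Markers of tendon cells, of fibroblasts and of the other cell types named in this paragraph mostly had lower means in knockouts. Their summed linear intensities overlapped between the groups for all lists named here but smooth muscle. The lower means were thus not limited to the cells that mainly make these collagens. The brightest gene carries most of a sum for tendon (Fmod, log2 14.15 in knockouts and 14.65 in controls). The same holds for fibroblasts and progenitors (Gsn, 13.9 in knockouts and 14.06 in controls). Fmod and the tendon marker Kera are also among the proteoglycans counted above. Tendon markers were lower in 9 of 9 genes (median -0.90), with sums of 15491 to 30914 in knockout muscle and 29385 to 36188 in control muscle. Markers of fibroblasts and fibro-adipogenic progenitors were lower in 8 of 9 genes (median -0.40), with sums of 17014 to 22982 in knockouts and 20463 to 24782 in controls. Macrophage markers were lower in 9 of 9 (6135 to 11408 in knockouts, 8852 to 13050 in controls), smooth muscle markers in 7 of 7 (9085 to 10406 in knockouts, 10550 to 12243 in controls), endothelial markers in 6 of 8 (3170 to 3777 in knockouts, 3729 to 4435 in controls) and Schwann cell markers in 5 of 5 (6093 to 9690 in knockouts, 7111 to 10970 in controls). Adipocyte markers were lower in 3 of 5 (15631 to 20769 in knockouts, 17211 to 19854 in controls). No marker gene passed the adjusted threshold (limma), and 23 of 65 tested in all lists had an unadjusted p under 0.05, against 8.9% of all genes, among them 8 of the 9 tendon markers. Because the lists were chosen with earlier results of these data known, the 8.9% is a background and not a test. The part of these cells in the collagen differences was not tested.

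Markers of the muscle fibre, the labelled tissue, were lower in 1 of 9 genes, with sums of 310709 to 327985 in knockouts and 305461 to 326050 in controls. Their log2 means in knockouts ran from 14.62 (Mb and Ckm) to 15.68 (Myh4). The highest value on each array lay between 16.01 and 16.07, so the brightest of these markers had little room to read higher. All 6 cartilage and bone markers with a probe set, Acan, Col2a1, Ibsp, Matn1, Matn3 and Sp7, lay under the filter, with sums of 29 to 32 in knockouts and 30 to 31 in controls. Blood markers were dim (142 to 382 in knockouts, 198 to 613 in controls), with Cd3e, Cd79a and Hba-a1 under the filter, as were the smooth muscle marker Cnn1 and the adipocyte marker Lep. Of the 4 tested blood markers 3 were lower (median -0.74), with S100a9 at -1.36, S100a8 at -1.33 and Alas2 higher at 0.41. At an unadjusted p under 0.05 (limma) were 2 of the 4, against 8.9% of all genes.

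Between 46.5% and 47.6% of probe sets on each array lay at a log2 intensity of 4 or more. The bacterial hybridisation controls, RNA added to every array, averaged 12.55 to 13.18 in knockouts and 12.67 to 13.06 in controls (log2). They were highest on Floxed_Mstn 3, Floxed_Mstn 1 and WT_Mstn 3. Without these 3 arrays none of the 15 collagen probe sets passed (limma, 8 at an unadjusted p under 0.05), where 1423669_at had a difference of -1.12 (adjusted p = 0.114) and 1423110_at one of -1.17 (adjusted p = 0.111). Smaller differences shrank without them, to -0.24 for Col3a1 1427883_a_at, -0.23 for Col14a1 1427168_a_at, -0.11 for Col5a2 1450625_at and -0.16 for Col5a3 1419703_at. With the controls' level as a covariate 4 passed, the 3 of type I and Col5a2 1422437_at (-0.88, adjusted p = 0.00912). The Gapdh probe set at the 3' end of the transcript exceeded the one at the 5' end, a measure of RNA integrity, by 0.40 to 0.48 (log2) in knockouts and 0.47 to 0.53 in controls. For beta-actin the same excess was larger, 1.32 to 1.44 in knockouts and 1.37 to 1.53 in controls. The mean excess was higher in controls for both genes. The part of RNA integrity in the collagen differences was not tested.

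**Figure D4:**
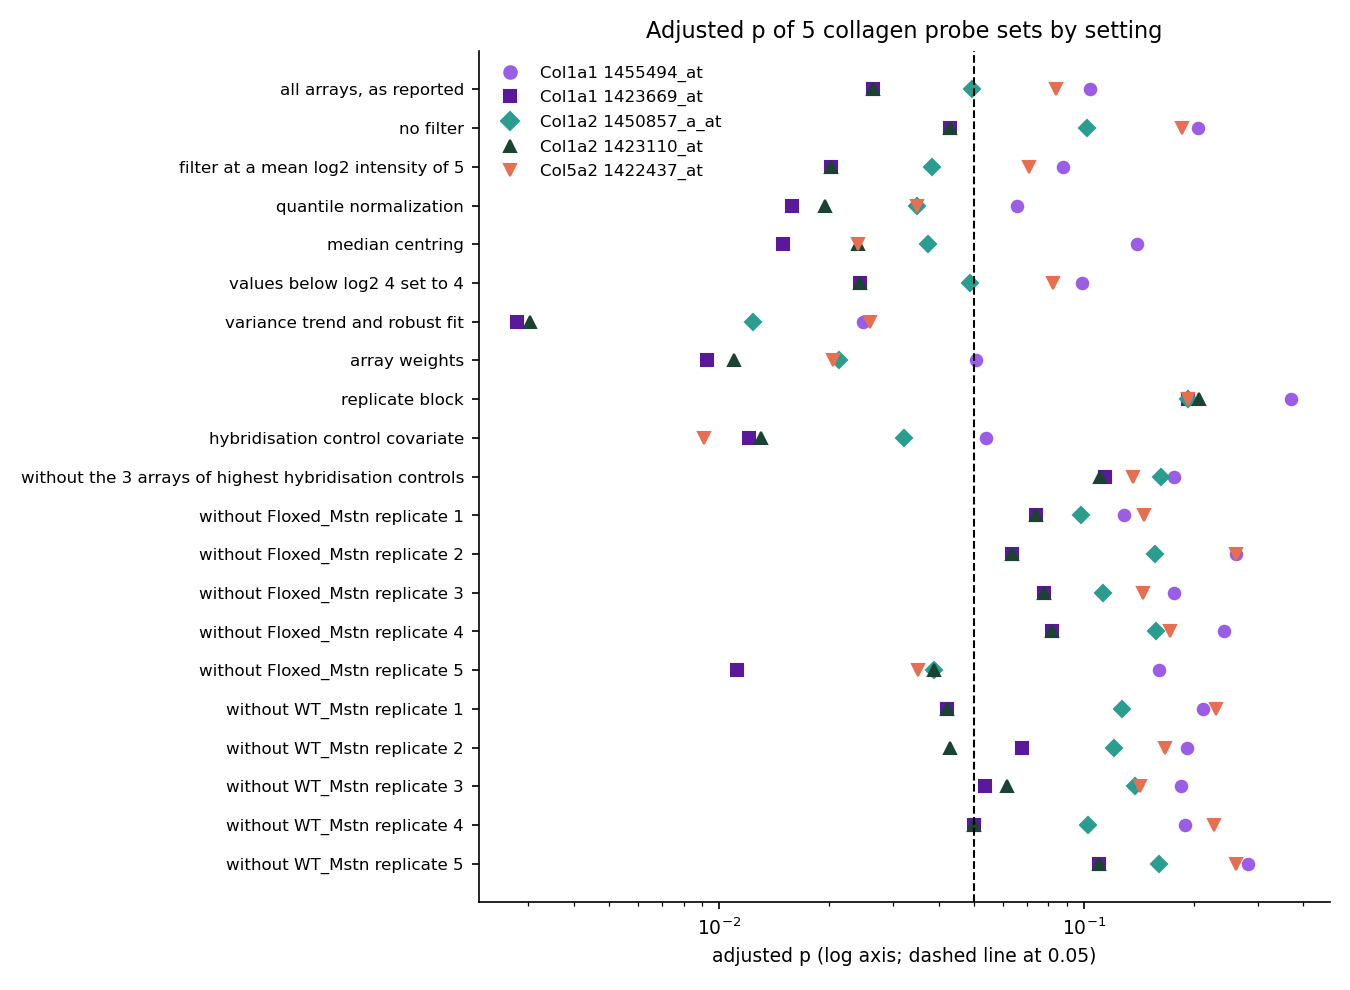
Adjusted p on a log axis (x axis) for 5 collagen probe sets of Col1a1, Col1a2 and Col5a2 under each processing setting and with each array left out (rows), with a dashed line at 0.05. The 3 called type I probe sets lie left of the line under most processing settings, except 1450857_a_at with no filter, and right of it under the replicate block, without the 3 arrays of highest hybridisation controls and without any of 7 single arrays.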

How the data were processed

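Biotinylated cDNA was made with NuGEN kits from Trizol-extracted RNA, per the labels' protocols. The deposited values are linear intensities that the authors made with GCRMA, per the submitters' processing notes, with settings not given in the sources used here. GCRMA compresses differences near its floor, which lay at a linear intensity of 3.57 to 3.77. Log2 was taken with no further normalization. Symbols came from the platform annotation (34958 probe sets with 1 symbol, 932 with several, never used for a named gene, and 9211 not listed). No probe set carried the name Mstn, so the genotype has no transcript check here.

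After removal of 64 control probe sets and of those under a mean log2 of 4, limma 3.58.1 (R 4.3.3, lmFit and eBayes, two-sided) compared the groups over 21154 probe sets with Benjamini-Hochberg adjustment. Exact permutation, coded in Python 3.11.15, served pairs of genes and pairs of probe sets of 1 gene, and scipy 1.17.1 gave quantiles for intervals. The 8 genes, the lists and the alternatives were chosen with earlier results of these data known. All members are named, with list genes past the threshold, the 2 of lowest p per list, and the 6 genes of highest and 2 of lowest r. Deviations of same-numbered arrays did not correlate alike, so the numbers were not taken as pairs. Arrays have no read depth, and their number limits the precision. Figures used matplotlib 3.10.9.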

Additional observations from a re-analysis of the deposited data

Results flagged for a closer look

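In 32 groups of 5 arrays tested (15 probe sets and the mean of the 8 genes, in each genotype), 2 held an array far from the other 4 by Dixon's criterion, where chance gives about 1 in 20. For Col5a1 probe set 1434479_at, WT_Mstn 3 was low at 7.82, while the other controls lay between 8.30 and 8.50. For Col14a1 probe set 1428455_at, Floxed_Mstn 3 was low at 3.75, while the other knockouts lay between 4.20 and 4.25, all on the log2 scale.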

How the results depend on the processing

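The sign of each of the 15 collagen differences held under every alternative run for it, except Col3a1 1427884_at, which was 0.04 without Floxed_Mstn 3 and 0.16 without the 3 arrays of highest hybridisation controls. Col14a1 1428455_at was left out by the filter at a mean log2 of 5. The 3 collagen calls became 2 with no filter, 4 after quantile normalization, median centring, array weights or the covariate, 5 with a robust fit and variance trend, and 0 with the replicate block (limma, 9 at an unadjusted p under 0.05) and without the 3 arrays (8 at an unadjusted p under 0.05). Leaving out each array in turn gave 0 to 4 (8 to 12 at an unadjusted p under 0.05). The count of 21 over all probe sets became 11 with no filter, 36 after quantile normalization, 58 with the trend, 67 with array weights, 1 with the replicate block, 99 with the covariate and 5 without the 3 arrays, and 1 to 17 with each array left out. The cause was not tested. Arrays of the same number had deviations that correlated at -0.51, 0.13, 0.62, -0.20 and 0.19, and 2 of 10 arrays matched their own number best. Of the 28 pairs, 7 passed with the mean of probe sets, and 0 to 0 with each array left out. The limit that the number of assignments sets on what can pass applies to these counts too. Low signal left 6 probe sets untested, and Floxed_Mstn 3 lay under a log2 of 4 for Col12a1 1434411_at and Col14a1 1428455_at.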
